A study of Glycine max with 14 samples.

Results

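A set of 60 soybean gene models was described that had higher values in black RM30-R* seed coats than in brown RM38-r seed coats in all 7 pairs of libraries. The set was selected on these values: the 14 columns of RPKM (read counts scaled by model length and library total) were rescaled to equal 75th percentiles, 0.5 was added, and the log2 value of the RM38-r library was subtracted from that of its RM30-R* partner. Of the 69425 complete gene models in the table, 35525 had a mean of at least 1 RPKM over the 7 RM30-R* libraries and lay outside a group of chromosome 13 loci that the rule drops. Among these, 679 (1.91%) had all 7 differences above 0, and the 60 whose smallest difference was largest were taken as the members. They belong to 53 loci. The line difference thus chose the members, and it is given below as a description with no test.

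RM30-R* is a stable black-seeded revertant with the genotype i, R*, T, which carries a CACTA transposable element in an intron of the R gene. RM38-r is a brown-seeded Clark isoline with the genotype i, r, T, whose r allele has a base deletion that truncates the R protein. Both lines carry the i and T alleles. The revertant arose in a mutable line that had been backcrossed to RM38-r, and each colour is represented by 1 line, so that the R allele and any other difference between these lines cannot be told apart. Seed coats of greenhouse plants were dissected at 5 stages set by the fresh weight of the seed: 100-200 mg, 200-300 mg, 300-400 mg, 400-500 mg, and 300-400 mg in desiccating seeds. At 300-400 mg and at 400-500 mg there were 2 libraries per line, from separate RNA extractions, and at the other 3 stages there was 1 library per line and no replicate.

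The seed coat is the maternal tissue that surrounds the embryo. Its epidermal cells make the flavonoid pigments of the seed, and anthocyanins give the black colour. R encodes a MYB transcription factor, and late anthocyanin genes such as those for anthocyanidin synthase are among the genes known to depend on such factors. As the seed fills and then dries, the seed coat passes from growth and pigment synthesis to senescence, and the level of many transcripts changes with the stage sampled.

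The libraries held 49509767 to 100643235 mapped alignments in RM30-R* and 52510463 to 120239040 in RM38-r, as recovered from the steps between low RPKM values. The RM38-r library R125 stood apart, with a 75th percentile of 4.01 RPKM, against 5.55 RPKM in R113 and 6.14 to 6.76 RPKM in the other 12 libraries. Of the RPKM summed over all models, the dropped chromosome 13 loci took 36.2% in R125, 19.1% in R113 and 0.659% to 6.09% elsewhere. Rescaling raised the values of R125 by a factor of 1.55, and results that rest on its pair, R123-R125, are also given without it. No table used here pairs these gene model identifiers with names or functions, and no marker list of seed coat or embryo cells was available for them, so the members are given by identifier and the labelled tissue was not checked against markers. Values below are RPKM as deposited, in the library order R42 (100-200 mg), R122 (200-300 mg), R123 and R154 (300-400 mg), R111 and R155 (400-500 mg) and R110 (desiccating) for RM30-R*, and R43, R124, R125, R156, R113, R157 and R112 for the same stages of RM38-r. Differences are log2 values of the rescaled RPKM plus 0.5, which understate the change of models with low values.

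The member with the largest smallest difference was Glyma03g33720.1 on chromosome 3, at 136, 21.3, 47.4, 24.2, 6.94, 8.48 and 1.12 RPKM in RM30-R*, against 95.6, 8.88, 6.09, 3.33, 2.64, 4.65 and 0.564 RPKM in RM38-r. Both lines had their highest value at 100-200 mg and their lowest in desiccating seeds, so the ranges of the lines overlapped, and the RM30-R* value was above its partner at each stage. Its 7 differences ran from 0.55 at 100-200 mg to 2.64 in the pair R154-R156. The next locus in the table, Glyma03g33730, was also a member: Glyma03g33730.1 had 104, 11.3, 23.7, 14.5, 3.11, 5.65 and 0.621 RPKM in RM30-R*, against 75.7, 4.48, 3.37, 1.84, 1.29, 3.61 and 0.317 RPKM in RM38-r, with rank 3. Glyma19g36470.1, on chromosome 19 and second in rank, had 163, 36.9, 83.4, 43.5, 10.9, 15 and 2.13 RPKM in RM30-R*, against 119, 15.8, 12.1, 8.01, 3.95, 6.68 and 0.808 RPKM in RM38-r. In these 3 models both RM30-R* libraries at 300-400 mg were above the RM30-R* library at 200-300 mg, and the RM38-r library R156 at 300-400 mg was below the RM38-r library at 200-300 mg. R125 was below that library as deposited and above it after rescaling.

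Other leading members had their lowest RM38-r values in R125 or in desiccating seeds. Glyma11g18640.1 had 43.1, 8.76, 4.43, 9.58, 1.76, 7.23 and 0.768 RPKM in RM30-R*, against 34.6, 2.09, 0.161, 2.91, 0.656, 4.72 and 0.165 RPKM in RM38-r. In RM38-r, its value at 300-400 mg was 0.161 RPKM in R125, which is 7 reads, and 2.91 RPKM in R156, and the 400-500 mg library R157 was higher. A low value in R125 was also seen in Glyma04g02240.1, at 85.6, 27.8, 8.32, 19.8, 5.04, 15.3 and 1.93 RPKM in RM30-R*, against 71.0, 9.55, 0.401, 5.78, 2.05, 9.58 and 0.947 RPKM in RM38-r. Glyma20g28300.1 had 0.153 RPKM and Glyma05g00620.1 had 0.361 RPKM in R125, close to the RM38-r value of that model in desiccating seeds. The remaining models of the first 12 in rank (Glyma20g28300.2, Glyma10g39460.1, Glyma02g07520.1, Glyma03g42310.1 and Glyma16g26560.1) had means of 5.26 to 21.2 RPKM over the RM30-R* libraries and of 3.33 to 11.6 RPKM over the RM38-r libraries.

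**Figure D1:**
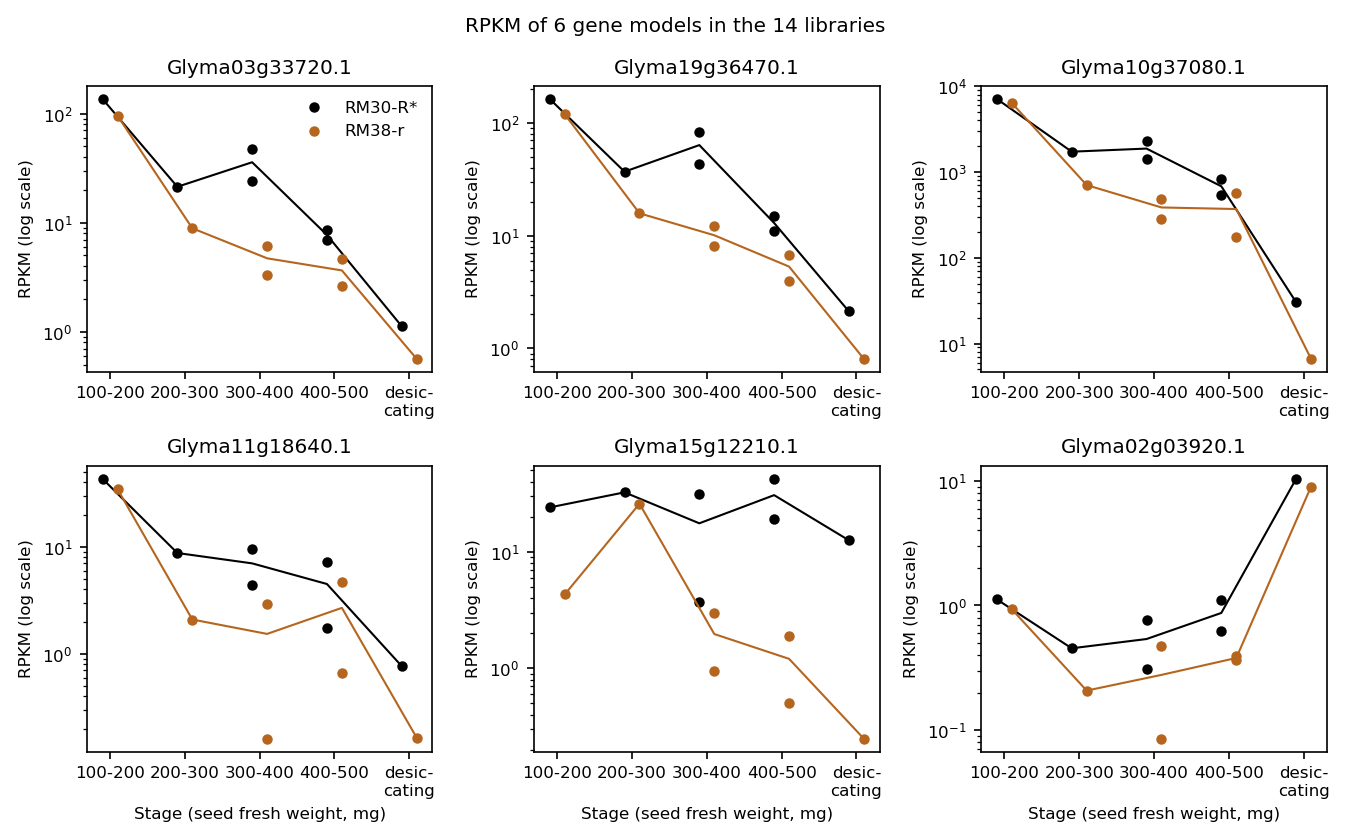
RPKM on a log axis by stage for 6 gene models, with 1 point per library (black, RM30-R*; brown, RM38-r) and lines through the mean of each line and stage. Glyma03g33720.1, Glyma19g36470.1, Glyma10g37080.1 and Glyma11g18640.1 are highest at 100-200 mg in both lines, Glyma15g12210.1 is at 12.6 RPKM in desiccating RM30-R* seeds against 0.249 RPKM in RM38-r, and Glyma02g03920.1 is highest in desiccating seeds of both lines.

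The members spanned a wide range of abundance. Their mean over the RM30-R* libraries ran from 1.24 to 2002 RPKM with a median of 9.56 RPKM, and their mean over the RM38-r libraries from 0.588 to 1231 RPKM with a median of 5.41 RPKM. The most abundant was Glyma10g37080.1, a model of 431 nt on chromosome 10, at 7125, 1731, 2331, 1430, 541, 825 and 30.4 RPKM in RM30-R*, against 6389, 705, 283, 491, 175, 566 and 6.63 RPKM in RM38-r. Its line difference was 0.21 at 100-200 mg, where it was most abundant, and 2.14 in desiccating seeds. Glyma11g21620.1, the shortest member with a model of 246 nt, had 1153, 290, 447, 217, 85.3, 491 and 26 RPKM in RM30-R*, against 487, 216, 81.3, 127, 63.5, 278 and 9.26 RPKM in RM38-r. Glyma06g48050.1 had 587, 232, 271, 195, 129, 220 and 51 RPKM in RM30-R*, against 516, 150, 44.4, 77.5, 91.0, 124.8 and 24.9 RPKM in RM38-r, and kept the highest desiccating value of all members in both lines. Glyma16g28150.1 and Glyma08g14680.1 were the other members among the 5 most abundant, with means of 136 and 72.6 RPKM in RM30-R*, against 66.2 and 46.8 RPKM in RM38-r. At the other end, 30 members had a mean under 10 RPKM in RM30-R*.

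Depth limited the low values. Reads could be recovered for all 60 members, and 18 of them had under 10 reads in at least 1 library, most often in R112 (14 members) and R125 (11 members). Glyma16g26560.1 and Glyma20g01120.1 had 0 reads in R112, which allows up to 0.0838 RPKM and 0.0663 RPKM at 3 reads. In Glyma10g36290.1 a single read gave 0.0234 RPKM in R112, with a 95% Wilson interval of 0.00412 to 0.132 RPKM. Such intervals cover counting error only. No member was at 0 in 5 or more RM38-r libraries.

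The line difference of the members was largest in the middle of seed development. Its median over the 60 members was 0.39 at 100-200 mg and 0.87 at 200-300 mg, 1.43 (R123-R125) and 1.40 (R154-R156) at 300-400 mg, 0.62 (R111-R113) and 0.47 (R155-R157) at 400-500 mg, and 0.41 in desiccating seeds. Over all 35525 models with a mean of at least 1 RPKM in RM30-R*, the median lay between -0.03 and 0.06 in every pair. Their quartiles were widest apart at 300-400 mg, at -0.22 to 0.24 (R123-R125) and -0.18 to 0.30 (R154-R156). They were at -0.18 to 0.18 in R42-R43 and -0.09 to 0.12 in R111-R113. A set chosen above 0 in each pair can have its largest differences where all models spread most, and the part this played was not tested. The 619 other models that were higher in all 7 pairs had their largest medians at the same stage, at 0.56 and 0.50, with 0.14 to 0.35 in the other pairs, so that the peak at 300-400 mg was not particular to the members. The largest of a member's 7 differences fell in a 300-400 mg pair for 53 members, 37 of them in R123-R125 and 16 in R154-R156. In 49 of the 60, both differences at 300-400 mg exceeded both at 400-500 mg. The smallest difference, which set the rank, fell at 100-200 mg for 19 members, in desiccating seeds for 16, in R155-R157 for 12, in R111-R113 for 7 and at 200-300 mg for 6. The median gap of a member was 0.34 between the 300-400 mg pairs and 0.29 between the 400-500 mg pairs. At 400-500 mg that gap is large beside the median differences of 0.62 and 0.47. Single members differed by up to 2.09 and 1.28.

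**Figure D2:**
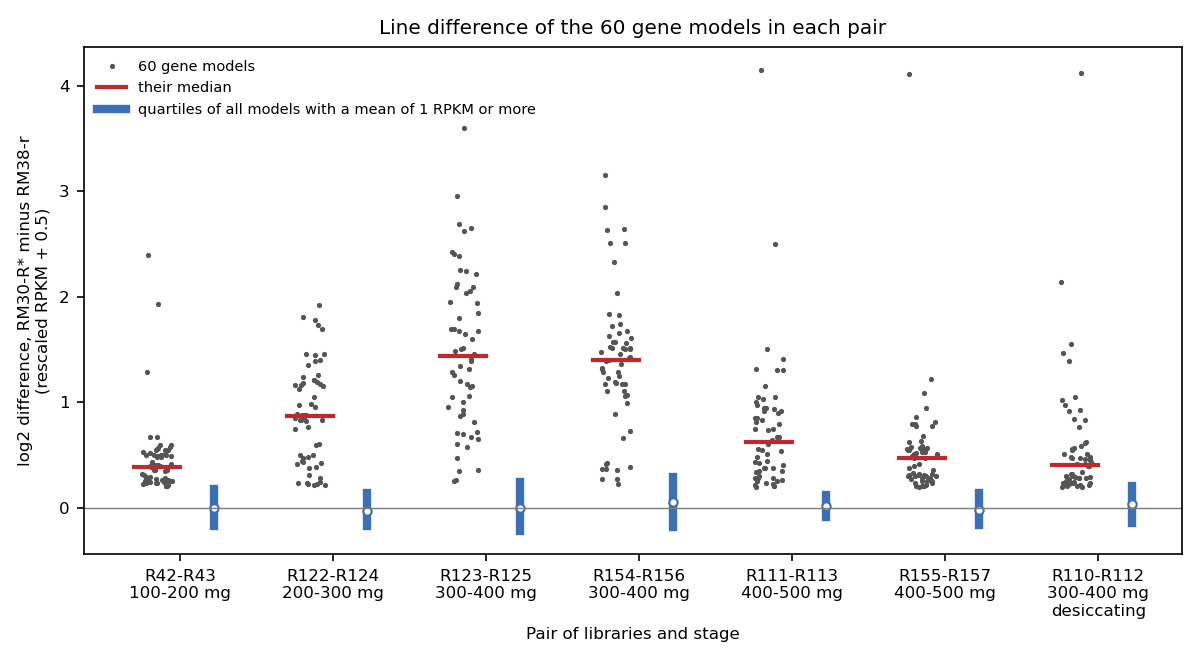
The log2 difference, RM30-R* minus RM38-r, of each of the 60 gene models (grey points) in each of the 7 pairs, with the members' median (red line) and the median and quartiles of all 35525 models with a mean of at least 1 RPKM in RM30-R* (blue). The members' median is 1.43 and 1.40 in the 300-400 mg pairs and 0.39 to 0.87 in the other pairs, and the rule itself places all points above 0.

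Models at the edge of the rule differed little from each other. The last inside were Glyma18g07330.1, Glyma02g07180.1 and Glyma18g18130.1, with smallest differences of 0.1987, 0.1985 and 0.1984. The first outside were Glyma09g37400.2, Glyma10g03750.1 and Glyma20g01610.1, with 0.1973, 0.1959 and 0.1940. The rule thus cut a gradual series. Which models it takes depended on the pairs: without R42-R43, R155-R157 or R110-R112, 26, 22 and 23 of the 60 were still among the first 60, and without R123-R125, 56 were. In no member did the RM30-R* libraries all lie above the RM38-r libraries (0 of 60, with or without rescaling). That count was not made over all models, so it describes the members and does not set them apart.

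That change between stages was not used by the rule and could be tested. For each pair the mean of both lines was taken. A line difference of equal size at all stages cancels between such means. That of the members was not equal at all stages, so part of it can enter their stage changes. Stages were compared with limma over the 44080 models that reached 0.5 RPKM in 2 or more libraries, with Benjamini-Hochberg adjustment over all of them. All 60 members passed that filter. The spread came from the replicated stages, with 2 residual degrees of freedom, so the single pairs at 100-200 mg and in desiccating seeds are assumed to vary like them, and the p-values measure the spread between RNA extractions. Desiccating seed coats had lower values than those at 100-200 mg in 59 of the 60 members, beside 52.3% of all models by sign alone. The fall passed the test in 43 members, while 14.2% of all models passed as lower and 7.18% as higher. Of the members, 1 rose. With either of the 300-400 mg pairs left out, which leaves 1 residual degree of freedom, the fall passed in 25 members, beside 8.32% (without R123-R125) and 8.25% (without R154-R156) of all models. The median change was -4.07 over the members and -0.05 over all models tested. Of the 35524 tested models that also had a mean of at least 1 RPKM in RM30-R*, 9.9% fell.

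The 5 largest falls among those past the threshold were those of Glyma10g37080.1 (-8.80 ± 0.81 SE, adjusted p = 0.0104), Glyma08g14680.2 (-6.55 ± 0.64, adjusted p = 0.0117), Glyma08g14680.1 (-6.52 ± 0.64, adjusted p = 0.0118), Glyma03g33730.1 (-6.49 ± 0.71, adjusted p = 0.0140) and Glyma03g33720.1 (-6.40 ± 0.66, adjusted p = 0.0127). Smaller falls of 1.61 to 1.88 on the log2 scale passed in Glyma06g11290.1, Glyma20g29270.1, Glyma19g43170.1 and Glyma16g03980.1. The calls of Glyma06g11290.1, Glyma20g29270.1 and Glyma16g03980.1 were lost with any 1 of the 4 replicated pairs left out (adjusted p from limma of 0.0521 to 0.0681), and that of Glyma19g43170.1 with either 300-400 mg pair left out (0.0658 and 0.0669) but not with a 400-500 mg pair left out. Glyma16g03980.1 was also the member with the most even line difference. It had 27.5, 12.5, 12.5, 15.6, 10.5, 14.3 and 6.51 RPKM in RM30-R*, against 21.5, 9.02, 5.23, 11.6, 7.33, 11.1 and 5.65 RPKM in RM38-r, with 7 differences of 0.22 to 0.58 (SD 0.11). Glyma09g01040.1 and Glyma16g03230.2 followed, with an SD of 0.14 and 0.15. The 16 members that did not pass had changes of -6.17 to -1.40, with a median SE of 1.07, against 0.42 in the members that passed. Glyma11g18640.1 was among them (-5.36 ± 1.27 SE, adjusted p = 0.0626).

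At 400-500 mg, all 60 members were below their level at 100-200 mg, beside 48.1% of all models by sign alone. The fall passed the test in 24 members, while 8.06% of all models passed as lower and 1.4% as higher. The median change was -2.77 over the members and 0.02 over all models. Glyma10g36290.1 had the largest fall, of -4.86 (adjusted p = 0.00476). Its line difference was also among the least even (SD 1.39): it had 49.8, 5.66, 9.18, 6.92, 0.866, 1.75 and 0.165 RPKM in RM30-R*, against 39.5, 1.10, 0.183, 0.493, 0.581, 1.03 and 0.0234 RPKM in RM38-r. Between 300-400 mg and 400-500 mg no member passed, nor did any of the 44080 models (0%), and at an unadjusted p under 0.05 limma gave 7 members that were lower and 0 that were higher at 400-500 mg (1873 and 1435 of all models). A stage effect over the 5 stages passed in 17 members, against 7.85% of all models. Leaving out 1 of the replicated pairs at a time gave 5 to 11 members for the fall at 400-500 mg, beside 3.01% to 4.49% of all models, and 0 to 2 for the effect over 5 stages, beside 1.4% to 1.88% of all models, a share the members then did not stand out from.

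The pair means average over the lines, and the course of each line is described here without a test because it uses the same contrast as the rule. In rescaled values, 57 of the 60 members were highest at 100-200 mg in RM30-R* and 57 in RM38-r, and 54 were lowest in desiccating seeds in RM30-R* and 49 in RM38-r. Relative to the 100-200 mg library of the same line, the members of RM30-R* had a median log2 level of -1.97 at 200-300 mg, -2.07 and -1.93 at 300-400 mg, -3.03 and -2.49 at 400-500 mg and -4.06 in desiccating seeds. Those of RM38-r were at -2.39 at 200-300 mg, -3.12 and -2.83 at 300-400 mg, -3.28 and -2.38 at 400-500 mg and -4.05 in desiccating seeds. The level at 400-500 mg was above that at 300-400 mg in 4 members in RM30-R* and in 40 members in RM38-r, by the mean of the 2 libraries. Both RM38-r libraries at 400-500 mg lay above both at 300-400 mg in only 4 of the members. For most of the 40 that order is thus within the spread of the libraries. R113 was above R125 in 30 members, and R157 was above R156, a comparison without R125, in 47. In RM30-R* both libraries at 400-500 mg lay below both at 300-400 mg in 26 members. None of these counts by line was made over all models, so they describe the members and do not set them apart.

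**Figure D3:**
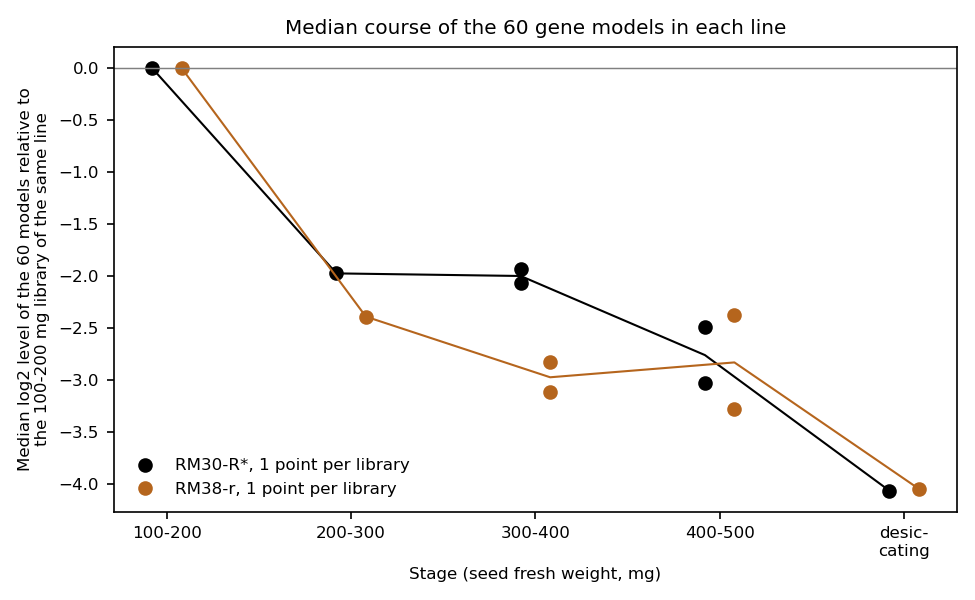
Median log2 level of the 60 gene models in each library relative to the 100-200 mg library of the same line, by stage (black, RM30-R*; brown, RM38-r), with 1 point per library and lines through the mean of each stage. The lines are apart at 300-400 mg, at -2.07 and -1.93 in RM30-R* against -3.12 and -2.83 in RM38-r, and meet in desiccating seeds at -4.06 and -4.05.

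RM30-R* was also set against RM38-r at the stage before. The rule chose members for high values in these RM30-R* libraries and low values in these RM38-r libraries, which favours higher values in RM30-R* here too, so the counts are a description and support nothing. At 300-400 mg, 50 members in R123 and 57 in R154 were higher in RM30-R* than in the RM38-r library at 200-300 mg, with a median difference of 0.58 and 0.93. At 400-500 mg, 47 members in R111 were higher than in R125 and 58 in R155 were higher than in R156, with a median difference of 0.62 and 0.96. Of all 35525 models, 47.3% to 53.9% were higher in these comparisons. At 200-300 mg in RM30-R*, 4 members (6.67%) were higher than in RM38-r at 100-200 mg, beside 54.2% of all models. In desiccating RM30-R* seeds, 23 members (38.3%) were higher than in the RM38-r library R113 at 400-500 mg and 5 (8.33%) were higher than in R157, beside 43.5% and 43.3% of all models, so the first of these shares is near that of all models.

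**Figure D4:**
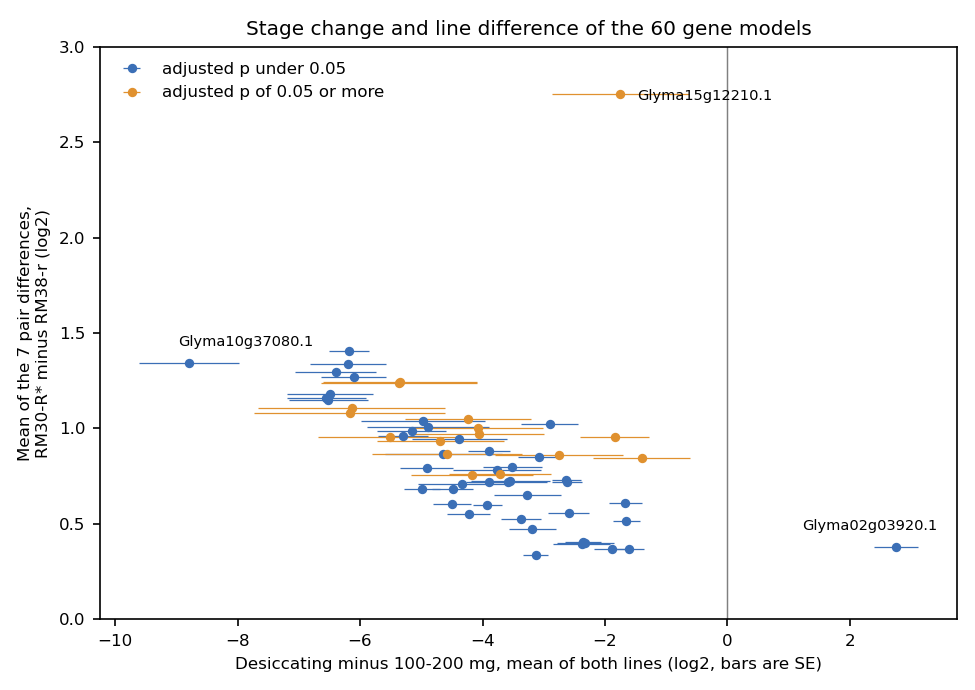
Each of the 60 gene models by its change between 100-200 mg and desiccating seeds in the mean of both lines (x axis, log2, bars are SE from limma; blue, adjusted p under 0.05; orange, the others) and the mean of its 7 line differences (y axis, log2). The models lie at stage changes of -8.80 to -1.40, except Glyma02g03920.1 at 2.75, and Glyma15g12210.1 stands alone with a mean line difference of 2.75.

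Direction over the 7 pairs went with the stage class across the table. Of the 3516 models with a mean of at least 1 RPKM in RM30-R* that fell between 100-200 mg and desiccating seeds, 323 (9.19%) were higher in RM30-R* in all 7 pairs and 2 (0.0569%) were lower in all 7. Of the 2443 models that rose, 7 (0.287%) were higher in all 7 pairs and 184 (7.53%) were lower in all 7. Of the 29565 models not called in either direction, 349 (1.18%) were higher and 301 (1.02%) were lower. The minimum of 1 RPKM was set on RM30-R* only, which favours models that are higher in that line. The higher and lower shares are thus not on equal terms. The 60 members contributed 43, 1 and 16 to the higher counts of these classes, and without the members the higher shares were 8.06%, 0.246% and 1.13%. Without the pair R123-R125, 9.7%, 0.491% and 1.75% were higher in the 6 other pairs and 0.0853%, 9.01% and 2.78% were lower, so that among the models not called the lower share then exceeded the higher one. The median line difference of the 3516 models that fell was 0.39 (R123-R125) and 0.46 (R154-R156) at 300-400 mg and -0.01 to 0.19 in the other pairs. The part that seed age at sampling played in the members' line difference was not tested.

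**Figure D5:**
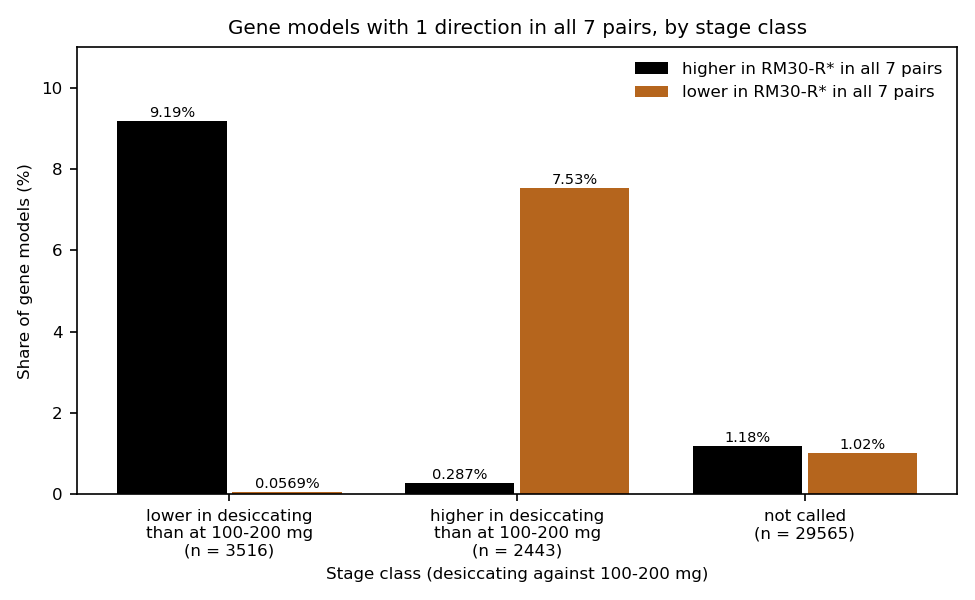
Share of gene models with 1 direction in all 7 pairs (y axis, percent; black, higher in RM30-R*; brown, lower in RM30-R*) among models that were lower, higher or not called in desiccating seeds against 100-200 mg. The share higher in RM30-R* is 9.19% among the 3516 models that fell, 0.287% among the 2443 that rose and 1.18% among the 29565 others. All models have a mean of at least 1 RPKM in RM30-R*, a minimum that favours the higher direction.

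The members Glyma15g12210.1, Glyma06g04780.1 and Glyma02g03920.1 departed from the common course. Glyma15g12210.1, on chromosome 15, had the largest line difference of the set, with a mean of 2.75 over the 7 pairs. It had 24.1, 32.5, 3.69, 31.5, 19, 42.4 and 12.6 RPKM in RM30-R*, against 4.31, 25.9, 0.952, 2.99, 0.5, 1.91 and 0.249 RPKM in RM38-r. Its differences were 2.39 at 100-200 mg, 0.29 at 200-300 mg, 1.06 and 3.15 at 300-400 mg, 4.15 and 4.11 at 400-500 mg and 4.12 in desiccating seeds, so the lines were close at 200-300 mg and far apart late. In RM30-R* the 300-400 mg libraries were far from each other, at 3.69 RPKM in R123 and 31.5 RPKM in R154, and R123 was also the lowest RM30-R* library of this model. Its stage change did not pass the test (-1.75 ± 1.12 SE, adjusted p = 0.323). Glyma06g04780.1, named here after its values were seen, also had its larger differences late: it had 7.2, 6.78, 1.17, 1.73, 8.95, 2.71 and 2.86 RPKM in RM30-R*, against 6.37, 4.74, 0.506, 1.13, 0.99, 0.842 and 0.657 RPKM in RM38-r. Glyma02g03920.1 was the member that rose towards desiccation (2.75 ± 0.36 SE, adjusted p = 0.0203, but 0.0573 without R111-R113, 0.0572 without R155-R157 and 0.0548 with a pseudocount of 0.1), at 1.12, 0.453, 0.31, 0.766, 0.626, 1.12 and 10.4 RPKM in RM30-R*, against 0.931, 0.207, 0.0852, 0.469, 0.363, 0.394 and 9 RPKM in RM38-r. Over all 60 members, the median Pearson r between pairs of members was 0.89 over the 14 libraries, a description in which all points share the libraries and the stages. The median r to the other members was -0.35 for Glyma02g03920.1, 0.47 for Glyma15g12210.1 and 0.55 for Glyma06g04780.1.

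The members were spread over 17 of the 20 chromosomes, with none on chromosomes 1, 14 and 17. Chromosome 16 had the most, with 8 models of 6 loci, and holds 3.72% of the models with a mean of at least 1 RPKM in RM30-R*. Besides the neighbours on chromosome 3, only Glyma06g48030 and Glyma06g48050, which are 2 loci apart in the table, were within 10 loci of another member. Glyma06g48030.1 was at 42.3, 9.28, 3.67, 7.79, 1.28, 6.45 and 0.78 RPKM in RM30-R*, against 32.3, 2.47, 0.509, 1.94, 0.636, 3.05 and 0.546 RPKM in RM38-r, far below Glyma06g48050.1 per unit length. The R gene lies on chromosome 9, where Glyma09g37400 was the nearest member locus, 36 loci away in the table. R itself (Glyma09g36990.1) could not be a member. Its RM30-R* values of 0 to 1.07 RPKM had a mean under the minimum of 1 RPKM. At these low values, it was above its RM38-r partner in only 1 pair.

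Of the 53 loci, 40 had 1 gene model in the table. The other 13 had 32 models, of which 20 were members and 31 were higher in RM30-R* in all 7 pairs, and 7 loci gave 2 members each. Models of 1 locus share sequence, and a read that aligned to several models was counted in each of them, up to a limit on alignments above which it was discarded, so they are not independent of each other. Glyma08g14680.1 and Glyma08g14680.2, for example, had 285, 48.9, 63.6, 54, 20, 34.3 and 2.57 RPKM and 260, 43.6, 56, 48.5, 17.8, 30.8 and 2.27 RPKM in RM30-R*, against 250, 26.8, 6.25, 8.82, 6.68, 27.3 and 2.13 RPKM and 227, 23.8, 5.39, 7.87, 5.91, 24.4 and 1.81 RPKM in RM38-r. How many reads members of different loci share was not tested.

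None of 13 genes of the anthocyanin pathway was a member. The rule took only 60 of 35525 models, so this count says little about the pathway. The pathway runs from chalcone synthase through flavanone 3-hydroxylase and dihydroflavonol reductase to anthocyanidin synthase and the enzymes that add sugars and methyl groups. Of the 13, 3 were higher in RM30-R* in all 7 pairs, beside 1.91% of the 35525 models. Of the rest, 4 were higher in 6 pairs, 1 in 5 and 5 in 4 or fewer, with UGT78K2 in 3 and UGT78K1 in 1. The paper also gives CHI2, ANR1 and ANR2, which were not on this list. The flavonoid hydroxylase gene F3'H (Glyma06g21920.1) and the anthocyanidin synthase genes ANS2 (Glyma01g42350.1) and ANS3 (Glyma11g03010.1) were those higher in RM30-R* in all 7 pairs. Their smallest differences of 0.08, 0.05 and 0.0004 were below those of the members. Their mean differences over the 7 pairs were 0.94, 1.65 and 1.80, beside a median of 0.85 over the members. At 400-500 mg the differences were 0.17 (R111-R113) and 0.08 (R155-R157) for F3'H, 2.98 and 1.52 for ANS2, and 3.03 and 1.56 for ANS3. The list was chosen with results of these data known. Its median difference by pair was 0.00 at 100-200 mg, 0.63 at 200-300 mg, 1.50 and 1.79 at 300-400 mg, 1.40 and 0.08 at 400-500 mg and 0.73 in desiccating seeds, beside the members' 0.39, 0.87, 1.43, 1.40, 0.62, 0.47 and 0.41 in the same order of pairs. Between 100-200 mg and desiccating seeds 8 of the 13 fell and 0 rose, against 14.2% and 7.18% of all models, among them F3'H (-5.47 ± 0.29 SE, adjusted p = 0.00308) and ANS3 (-4.49 ± 0.28 SE, adjusted p = 0.00477).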

How the data were processed

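Seed coat RNA of RM30-R* and RM38-r was sequenced by the authors as single reads and aligned with Bowtie (version 1, in the submitters' processing notes) to Glyma1 gene models. The authors allowed mismatches, counted a read at each of its alignments and discarded reads with more alignments than a set limit, so near-identical models can share reads. The deposited values are RPKM, scaled by model length and mapped total. Group and stage came from the labels. All 14 value columns were used, with 0 left over. The last line of the table was incomplete and was left out (1 line).

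Columns were divided by their 75th percentile and multiplied by the mean of these. Pairs follow library numbers. The replicate pairing was compared with the values of 44080 models. Deviations of the paired libraries of both lines correlated at 0.18 at 300-400 mg and 0.60 at 400-500 mg, so the pairing at 300-400 mg had little support. Stages were compared on log2(RPKM + 0.5) of pair means with limma (version 3.58.1, R 4.3.3), moderated variances with a trend, two-sided, with Benjamini-Hochberg adjustment and a threshold of 0.05. The remaining steps used Python 3.11.15 (pandas 2.3.3, numpy 2.4.6, matplotlib 3.10.9 and scipy 1.17.1). Reads were recovered from RPKM steps: 741 of 742 low models checked were whole in every library. The fit and the recovery were tested on simulated data.

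The members, the lists and the rules were chosen with earlier results of these data known. Models named are the 12 of highest rank, the 5 most abundant in RM30-R*, any at 0 in at least 5 RM38-r libraries (there were 0), the 3 with the largest and the 3 with the smallest SD of the 7 differences, members within 10 loci of another member or of R, the 5 largest and 5 smallest stage changes past the threshold, and the 3 on each side of the rule's limit. Others are said to be named after their values were seen. Glyma13g01100.1 and Glyma10g43290.1 are named in the closing section on that basis. Alternatives were pseudocounts of 0.1 and 1, no rescaling, quantile normalization, other minimums, no variance trend, libraries as units, and leaving out pairs. Shares by stage class without the 60 members and without R123-R125 were added after seeing the data.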

Additional observations from a re-analysis of the deposited data

How the results depend on the processing

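Of the 60 members, the rule kept 40 to 56 under other pseudocounts, scalings and minimums, and 22 to 56 when 1 of the 7 pairs was left out. For the fall between 100-200 mg and desiccating seeds, 59 of the 60 members were below 0 under each alternative, and the count past the threshold was 32 to 57 with all pairs and 25 to 32 with 1 replicated pair left out, where 1 residual degree of freedom remains. The fall at 400-500 mg passed in 5 to 11 members with 1 pair left out (3.01% to 4.49% of all models). The effect over 5 stages, which passed in 17 members, passed in 7 with a pseudocount of 0.1 (5.1% of all models), in 6 with no filter (9.9%), in 9 with no variance trend (4.03%) and in 0 to 2 with 1 pair left out (1.4% to 1.88%). With no filter or with 1 pair left out, the members thus did not stand out from all models in this test. The cause was not tested for the first 3 of these. With the 14 libraries as units and no replicate block, 58 members passed for the effect over 5 stages (52.2% of all models) and 56 for the fall at 400-500 mg (19.7%). That fit takes both libraries of a pair as separate samples, adds a term for the line and has more residual degrees of freedom. Which of these raised the counts was not tested. Between 300-400 mg and 400-500 mg the count of members was 0 under each alternative, and 0.349% of all models were lower with the 14 libraries as units and no replicate block. Without the pair R123-R125, 0.491% of the models that rose towards desiccation were higher in RM30-R* in the other 6 pairs, against 0.287% in all 7. Over the 28 named members and 12 alternatives the sign of the change between 100-200 mg and desiccating seeds did not reverse, 51 values lost the call, 12 gained it and 273 kept their side of the threshold. For this sign, and for the 59 of 60 above, only other pseudocounts and scalings could bring a change. Filters, the variance trend, libraries as units and left-out replicated pairs leave these estimates as they were. Values of members at few reads in R112 and R125 are limited by depth.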

Other observations

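Some further members had courses unlike the rest and are named after their values were seen. Glyma10g43290.1 had 5.27, 1.03, 3.3, 4.03, 0.976, 3.4 and 0.792 RPKM in RM30-R*, against 1.03, 0.777, 1.16, 0.739, 0.476, 2.73 and 0.44 RPKM in RM38-r. Its differences of 1.93 at 100-200 mg and 1.83 in R154-R156 were the larger ones, and 0.24 at 200-300 mg was the smallest. Glyma13g01100.1 had 10.7, 1.11, 2.43, 0.879, 1.2, 0.971 and 1.33 RPKM in RM30-R*, against 8.32, 0.619, 0.292, 0.547, 0.753, 0.661 and 0.894 RPKM in RM38-r, and was near its lower level from 200-300 mg on in both lines, apart from R123 at 2.43 RPKM.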
